A study of Homo sapiens with 19 samples.

Results

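The TRE5GCCC elements are cloned DNA elements whose names are TRE5GCCC, 4 digits and an orientation, .fwd or .rev. They were chosen by that name alone, and 260 of the 3422 element names in the series carry it, 129 in .fwd and 131 in .rev orientation, from 131 numbered loci. The labels do not say what the letters after TRE5 stand for, and the sequences and genome positions of the elements were not used here. The elements were measured by QUASARR-seq in K-562, a cultured cell line of human chronic myelogenous leukaemia, from a plasmid pool that combined them with the minimal promoters pGAPDH, pMYC and pAPOBEC3F. The pool was electroporated with 20 µg of library each time, 5 electroporations were pooled per technical replicate, and cells were collected after 6 h. Each plasmid carries a pair of barcodes: RNA over DNA of the barcode named paBC is the promoter read-out of an element, and RNA over DNA of eaBC is its enhancer read-out. Each read-out had 2 RNA and 2 DNA libraries, numbered 1 and 2. By protocol, biological replicates were grown and electroporated on separate days, but which kind of replicate the numbers 1 and 2 stand for is not given, so p-values measure only the spread between these libraries, which may be technical. No gene of the cells themselves was measured, so the cell line could not be checked against its markers.

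A promoter is DNA from which transcription starts, and an enhancer is DNA that raises transcription from a promoter elsewhere. Many active regulatory elements do both, and a minimal promoter gives an enhancer a defined start site to act on. GAPDH encodes a glycolytic enzyme made in nearly all cells, MYC a growth-promoting transcription factor and APOBEC3F an antiviral cytidine deaminase. Elements were cloned in both orientations: in the promoter read-out the orientation decides which strand is read into the barcode, whereas enhancers are classically described as acting in either orientation.

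Not every element had values in every table. Under pMYC 223 elements were measured, under pGAPDH 254, and under pAPOBEC3F 236 in the promoter and 235 in the enhancer read-out, with 204 elements present in all 6 tables. All of these were tested, with no further filter on low values. Read numbers here and below were inferred from the deposited signal values, as described under the processing. The libraries held 200722 to 10167588 reads per table, with the fewest in the pAPOBEC3F enhancer RNA libraries, where the median TRE5GCCC element had 57 and 63 reads, and the most in the pGAPDH promoter RNA libraries, with medians of 2146.5 and 2328 reads. Across the elements, which share libraries and are not replicates, Pearson's r between replicates 1 and 2 of the log2 RNA/DNA ratio was 0.978, 0.981 and 0.984 in the promoter read-outs of pMYC, pGAPDH and pAPOBEC3F and 0.877, 0.927 and 0.847 in the enhancer read-outs.

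In the promoter read-out, more TRE5GCCC elements were above than below the zero point of the table under pMYC and pAPOBEC3F, and about as many below as above it under pGAPDH. An element was called higher or lower where its log2 RNA/DNA ratio differed from 0 at an adjusted limma p under 0.05, over all elements of the table. Under pMYC 134 of 223 were called higher and 41 lower, against 51.6% and 27.6% of all 2561 elements tested. Under pAPOBEC3F 147 of 236 were called higher and 43 lower, against 50.5% and 30.0% of all 2699 elements, and under pGAPDH 103 of 254 were called higher and 116 lower, against 36.5% and 47.1% of all 3044. The median log2 ratios of the TRE5GCCC elements were 0.40, 0.62 and -0.03 under pMYC, pAPOBEC3F and pGAPDH, and those of all elements 0.24, 0.24 and -0.07. So the elements sat somewhat above the median of the pool under pMYC and pAPOBEC3F and close to it under pGAPDH. This was not particular to them. Under pMYC, pAPOBEC3F and pGAPDH the medians were 0.50, 0.64 and 0.13 for elements named TRE5GCLR and 0.32, 0.33 and -0.05 for TRE5GCNC. Those of TRE5NGCC were lower, at -0.37, -0.43 and -0.45.

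The enhancer read-out had fewer calls, and lower calls were few under pMYC and pAPOBEC3F. Under pMYC 99 of 223 elements were called higher and 4 lower, against 39.6% and 7.38% of all elements. Under pGAPDH 70 of 254 were called higher and 35 lower, against 23.5% and 19.2%, and under pAPOBEC3F 83 of 235 were called higher and 12 lower, against 28.9% and 7.50%. Median log2 ratios were 0.30, 0.02 and 0.17 under pMYC, pGAPDH and pAPOBEC3F, beside 0.19, -0.01 and 0.09 for all elements. Higher calls depend on where the authors set 0. With each table centred on the median of all its elements, 108 elements were called higher and 69 lower as promoters under pMYC, 129 and 71 as promoters under pAPOBEC3F, and 71 and 27 as enhancers under pMYC. Shares over all elements on the centred scale are not given here, so these counts are not read as a trait of TRE5GCCC elements. Counts of lower calls also moved when 1 library was left out: the pMYC promoter read-out had 27 and 25 without DNA replicates 1 and 2. In the enhancer read-outs the lower calls numbered 1, 1, 9 and 14 under pMYC without DNA replicate 1, DNA replicate 2, RNA replicate 1 and RNA replicate 2. They numbered 3, 2, 27 and 30 under pAPOBEC3F in the same order, and under pGAPDH 23 without DNA replicate 1 and 19 and 10 without RNA replicates 1 and 2.

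TRE5GCCC0106 led the set. Both of its orientations were among the 5 highest TRE5GCCC elements of all 6 tables. Under pMYC, TRE5GCCC0106.fwd had log2 RNA/DNA ratios of 3.74 and 3.85 in replicates 1 and 2 of the promoter read-out and 3.78 and 3.81 in the enhancer read-out, a mean of 3.80 ± 0.08 and 3.79 ± 0.02 (SD, n = 2). Under pAPOBEC3F the same element gave 4.49 and 4.47 as a promoter and 3.86 and 3.74 as an enhancer. Under pGAPDH it gave 1.78 and 1.77 as a promoter and 2.15 and 2.21 as an enhancer. RNA over DNA was thus 13.9 times that at the zero point in both pMYC read-outs, and relative to the zero point of each table the pGAPDH replicates lay below those of the other minimal promoters in either read-out. On reads over library totals the order against pMYC was turned, with RNA over DNA of TRE5GCCC0106.fwd 1.47-fold higher under pGAPDH as a promoter and 2.19-fold higher as an enhancer. In reverse orientation, TRE5GCCC0106.rev reached 3.65 ± 0.03 and 3.55 ± 0.10 as promoter and enhancer under pMYC, 1.89 ± 0.12 and 2.06 ± 0.02 (SD, n = 2 each) with pGAPDH, and 4.78 ± 0.12 and 3.70 ± 0.09 with pAPOBEC3F. The adjusted limma p of TRE5GCCC0106.fwd and TRE5GCCC0106.rev ranged from 7.8e-70 to 2.2e-12 over the 6 tables.

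TRE5GCCC0079, TRE5GCCC0076 and TRE5GCCC0006 made up most of the other high values. TRE5GCCC0079.rev stood at 3.75 and 3.85 in the 2 replicates of the pMYC promoter read-out and at 2.69 and 2.96 in the enhancer read-out. TRE5GCCC0079.fwd stood at 3.001 and 2.92 as a promoter and at 3.22 and 3.60 as an enhancer. In these pMYC libraries the reverse orientation was therefore the stronger promoter and the forward orientation the stronger enhancer, without overlap of the replicates. TRE5GCCC0076.fwd had 4.76 and 4.68 in the pAPOBEC3F promoter read-out and 2.54 and 3.02 in the enhancer read-out, while TRE5GCCC0076.rev had 3.63 and 3.46 as a promoter and 3.53 and 3.23 as an enhancer. TRE5GCCC0006.fwd had 3.70 and 3.62 as a promoter and 3.76 and 3.25 as an enhancer under pAPOBEC3F, and TRE5GCCC0006.rev 3.69 and 3.17 as a promoter and 3.94 and 3.44 as an enhancer. Neither orientation of TRE5GCCC0076 and no forward TRE5GCCC0006 had values in the pMYC tables. TRE5GCCC0144.fwd was far higher as a promoter than as an enhancer. Its promoter values were 3.21 and 3.08 under pMYC and 3.88 and 3.71 under pAPOBEC3F, and its enhancer values 0.75 and 0.40, and 0.28 and 0.56.

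The strongest enhancer values under pGAPDH were rich in TRE5GCCC elements. Of all 3043 elements in that table, 53 (1.74%) had a log2 ratio of at least 1, and 16 of these were TRE5GCCC elements, 6.30% of the 254 measured. Among elements named TRE5GCLR 5 of 249 reached this level, and among TRE5GCNC 0 of 276. The 16 elements came from 9 loci, so most of them are, by name, the same locus in opposite orientations. As enhancers under pMYC and pAPOBEC3F, 35 of 223 (15.7%) and 45 of 235 (19.1%) had a log2 ratio of at least 1, against 15.9% and 13.5% of all elements, and as promoters under pGAPDH 15 of 254 (5.91%), against 6.47%. The level of 1 was looked at after values were seen, and no test was made of these shares. It takes in 1.74% of the pGAPDH enhancer table but 15.9% and 13.5% of the pMYC and pAPOBEC3F ones, so unlike tails are set side by side. At a log2 ratio of at least 3, which no enhancer reached under pGAPDH, TRE5GCCC elements were 4 of 14 enhancers under pMYC and 6 of 20 under pAPOBEC3F. Of the 20 highest enhancers under pGAPDH, 9 were TRE5GCCC elements, compared with 4 of 20 under pMYC and 6 of 20 under pAPOBEC3F, whereas none of the 20 highest promoters was one in any of the 3 promoter tables. TRE5GCCC elements made up 8.35% of the pGAPDH enhancer table and 8.71% and 8.72% of the pMYC and pAPOBEC3F enhancer tables. Richness at the very top was therefore not confined to pGAPDH.

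The loci behind these values were TRE5GCCC0106, 0179, 0006, 0076, 0079, 0124, 0083, 0004 and 0092. TRE5GCCC0179.rev gave 2.26 and 2.01 as an enhancer under pGAPDH, the second highest of the set after TRE5GCCC0106.fwd. As a promoter under pGAPDH it gave -0.41 and -0.42, on the other side of the zero point. The pGAPDH enhancer values of TRE5GCCC0006.fwd were 2.46 and 1.76 and those of TRE5GCCC0076.rev 1.94 and 2.23, from 46 and 26 DNA reads over both replicates, and the ranges of the 2 elements overlapped. TRE5GCCC0124.fwd, at 1.38 and 1.43, and TRE5GCCC0083.fwd, at 1.23 and 1.28, were also far above their own pGAPDH promoter values of 0.36 ± 0.02 and 0.19 ± 0.09 (SD, n = 2 each). Both were picked with their values known, and the gap was not tested. Their reverse orientations had no such gap. TRE5GCCC0124.rev had a mean of 1.00 as an enhancer and 1.01 as a promoter, and TRE5GCCC0083.rev 1.13 and 1.22. TRE5GCCC0076.fwd, TRE5GCCC0079.rev and TRE5GCCC0004.rev were likewise lower as enhancers than as promoters under pGAPDH.

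TRE5GCCC0172.rev was the only TRE5GCCC element called lower in all 6 tables, of 204 present in each, against 1.89% of all elements. Its log2 ratios were -1.69 and -1.28 in the pMYC promoter replicates, -1.42 and -1.58 under pGAPDH and -1.94 and -1.70 under pAPOBEC3F. In the enhancer read-out it gave -0.79 and -0.51, -0.48 and -0.53, and -1.07 and -0.69 under the same minimal promoters. The enhancer values were nearer 0 than the promoter values in all 3 cases, and no replicate overlapped. Over all elements, enhancer values were also less spread, with 0.575, 0.503 and 0.485 times the promoter SD under pMYC, pGAPDH and pAPOBEC3F. The largest decrease of TRE5GCCC0172.rev, under pAPOBEC3F as a promoter, was 3.53-fold (adjusted limma p 1.3e-06), from 94 RNA reads over both replicates. Its enhancer call was lost under pMYC without DNA replicate 1 or 2 (adjusted limma p 0.210 and 0.186) and under pAPOBEC3F without DNA replicate 2 (0.0882).

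Most other low elements reached their lowest values as promoters, where values were also more spread over all elements. TRE5GCCC0066 was low in both orientations: TRE5GCCC0066.fwd had -0.997 and -1.11 and TRE5GCCC0066.rev -1.04 and -1.02 in the pMYC promoter read-out, and -0.69 and -0.65, and -1.17 and -0.96, under pGAPDH. TRE5GCCC0169.rev had -1.04 and -1.03 as a promoter under pMYC and -1.09 and -1.19 under pGAPDH, and TRE5GCCC0122.rev had -1.05 and -1.25 under pGAPDH but 0.10 and -0.05 there as an enhancer. TRE5GCCC0038.rev reached -1.41 and -2.00 in the pAPOBEC3F promoter replicates, from 18 RNA reads in all, and -1.01 and -1.04 under pGAPDH from 684. Its pMYC promoter values were -0.996 and -0.67. In the pAPOBEC3F enhancer read-out the lowest were TRE5GCCC0017.rev at -0.97 and -0.87, TRE5GCCC0149.rev at -1.08 and -0.68 and TRE5GCCC0172.rev, from 25 to 42 RNA reads each. TRE5GCCC0017.rev was called higher as a promoter under the same minimal promoter, at 0.99 and 0.75. As enhancers, TRE5GCCC0017.rev was not called without DNA replicate 1 (adjusted limma p 0.277) and TRE5GCCC0149.rev without DNA replicate 1 or 2 (0.112 and 0.290).

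Whether an element acted alike under the 3 minimal promoters was then asked for the elements measured under all of them. In the promoter read-out, 69 of 205 were called higher under all 3 and 26 lower under all 3, against 30.2% and 21.2% of all 2237 shared elements. A further 44 were called higher under one minimal promoter and lower under another, against 15.3% of all. In 30 of these the element was higher under pMYC and pAPOBEC3F and lower under pGAPDH (9.21% of all elements), a count that was 15 with each table centred on its median. The share over all elements that goes with the centred count is not given here. In the enhancer read-out 43 of 204 were higher under all 3 and 1 lower under all 3, against 17.8% and 1.92% of 2236 elements, and 2 were called in opposite directions, against 1.74%. In all, 32 of 204 elements were called higher in all 6 tables, against 15.3% of all 2224 elements present in each. They came from 25 loci, of which TRE5GCCC0004, 0019, 0079, 0099, 0100, 0106 and 0124 had both orientations in the list.

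As promoters, pMYC and pAPOBEC3F ordered the elements much alike, and pGAPDH spread them less in both read-outs. Across 208 elements measured as promoters under both, Pearson's r between pMYC and pAPOBEC3F was 0.959, and the SD over elements was 1.23 times as large under pAPOBEC3F. Between pMYC and pGAPDH r was 0.814 over 220 elements, and the SD under pGAPDH was 0.561 times that under pMYC. In the enhancer read-out r between pMYC and pGAPDH was 0.889, with 0.542 times the SD, and r between pMYC and pAPOBEC3F was 0.890, with 1.11 times the SD. These are descriptions across elements that share libraries and, in pairs, sequence. Over all elements the SD under pGAPDH was 0.509 times that under pMYC as promoters and 0.438 times as enhancers, so narrower values under pGAPDH were found over the whole pool. When the 205 shared elements were put into 4 groups of 51 or 52 by their pAPOBEC3F promoter value, the median pMYC values were -0.29, 0.20, 0.69 and 1.70 from the lowest to the highest group. The median pGAPDH values of the same groups were -0.51, -0.09, -0.02 and 0.39, each relative to the zero point of its own table.

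Differences from pMYC were tested per element after the median difference of all shared elements was removed, since the tables were normalized separately. Both comparisons use the same pMYC values, so their results are not independent of each other. Between pGAPDH and pMYC as promoters, 44 of 220 TRE5GCCC elements were higher under pGAPDH and 102 lower, against 34.5% and 39.9% of all 2469 elements. In the enhancer read-out 9 of 220 were higher and 44 lower, against 7.58% and 19.4% of 2468. Between pAPOBEC3F and pMYC as promoters 63 of 208 were higher under pAPOBEC3F and 22 lower, against 26.6% and 17.1% of 2279. As enhancers none of 207 was called in either direction (0.00% of 2279 elements). At an unadjusted limma p under 0.05 there were 17 of the 207, against 10.2% of all elements, and enhancer reads were fewest for pAPOBEC3F. These counts moved with single libraries. The higher and lower counts for pAPOBEC3F as a promoter were 34 and 8 without DNA replicate 1 and 32 and 10 without DNA replicate 2, and the lower count was 60 and 43 without RNA replicates 1 and 2. The higher count for pGAPDH as an enhancer was 0, 2, 19 and 14 without DNA replicate 1, DNA replicate 2, RNA replicate 1 and RNA replicate 2, and the lower count 24 and 27 without DNA replicates 1 and 2. As enhancers under pAPOBEC3F, 6 higher and 3 lower elements were called without RNA replicate 1 and 7 and 11 without RNA replicate 2.

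The zero point of the comparison decides its direction. On reads alone, relative to library totals, the median RNA over DNA of all shared elements was 4.61-fold higher under pGAPDH than under pMYC in the promoter read-out and 5.75-fold higher in the enhancer read-out. Under pAPOBEC3F it was 1.42-fold and 1.83-fold lower. Compared on that scale, 219 of 220 TRE5GCCC elements were higher and 0 lower under pGAPDH in either read-out, and under pAPOBEC3F 10 were higher and 128 lower as promoters and 167 lower as enhancers. At the zero points the authors set, 4 elements were higher and 155 lower under pGAPDH as promoters, 0 and 79 as enhancers, and 11 lower under pAPOBEC3F as promoters. The median difference of all shared elements at those zero points was -0.37 under pGAPDH as promoters and -0.22 as enhancers. Under pAPOBEC3F as promoters it was 0.10. Shares over all elements on these scales are not given here, so the counts are not read as a trait of TRE5GCCC elements. The values that follow are differences beyond the median of all shared elements.

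TRE5GCCC0081.rev differed most. Its pMYC promoter values were 2.51 and 2.82, its pGAPDH values 0.04 and -0.38 and its pAPOBEC3F values 1.63 and 1.48, with no overlap between the 3 minimal promoters. The difference of pGAPDH from pMYC, beyond the median, was -2.47 ± 0.52 (SD, n = 2, adjusted limma p 8.6e-09) and that of pAPOBEC3F from pMYC -1.21 ± 0.33 (adjusted limma p 0.0017). On reads over library totals the pGAPDH difference was -0.26 and was not called (adjusted limma p 0.209). TRE5GCCC0079.rev and TRE5GCCC0144.fwd were also relatively lower under pGAPDH as promoters, with differences of -1.82 ± 0.03 and -1.79 ± 0.08 (SD, n = 2, adjusted limma p 3.1e-14 and 4.6e-14). On reads over library totals both were instead higher under pGAPDH, 1.31-fold and 1.33-fold (adjusted limma p 9.3e-07 and 4.8e-07). As enhancers, TRE5GCCC0006.rev, TRE5GCCC0079.fwd and TRE5GCCC0106.fwd were relatively lower under pGAPDH by differences of -1.55, -1.44 and -1.39 (adjusted limma p 3e-05, 1.8e-05 and 5.6e-08). On reads over library totals the enhancer value of TRE5GCCC0106.fwd was instead 2.19-fold higher under pGAPDH (adjusted limma p 1.8e-09). Each element named in this paragraph was nevertheless called higher under pGAPDH on its own, except TRE5GCCC0081.rev.

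The elements named as relatively higher under pGAPDH had values near or below 0. TRE5GCCC0139.rev had promoter values of -0.06 and -0.36 under pMYC and 0.20 and 0.21 under pGAPDH, a difference of 0.78 ± 0.22 beyond the median (SD, n = 2, adjusted limma p 2.8e-05). TRE5GCCC0077.rev moved from -0.19 and -0.12 to 0.16 and 0.18, a difference of 0.69 ± 0.04 (adjusted limma p 1.6e-08). TRE5GCCC0066.fwd, below 0 under both, gave 0.75 ± 0.10 (adjusted limma p 0.00011). As enhancers TRE5GCCC0044.fwd, TRE5GCCC0166.rev and TRE5GCCC0077.rev were relatively higher under pGAPDH, by 0.52, 0.43 and 0.41 (adjusted limma p 0.04, 0.0068 and 0.0056). None of these 3 was called in the pGAPDH enhancer table itself. Their differences missed the threshold without DNA replicate 1, at adjusted limma p 0.116, 0.0781 and 0.0521, and that of TRE5GCCC0044.fwd also without DNA replicate 2 (0.133) and RNA replicate 1 (0.163).

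Under pAPOBEC3F the promoters TRE5GCCC0068.rev, TRE5GCCC0106.rev and TRE5GCCC0150.rev exceeded pMYC most. TRE5GCCC0068.rev had 1.38 and 1.21 under pMYC and 2.65 and 2.20 under pAPOBEC3F, a difference of 1.03 ± 0.20 beyond the median (SD, n = 2, adjusted limma p 0.0027). TRE5GCCC0106.rev differed by 1.02 ± 0.15 and TRE5GCCC0150.rev by 0.90 ± 0.06 (adjusted limma p 0.00011 and 0.00012). In the other direction TRE5GCCC0175.rev had 0.05 and -0.11 under pMYC and -0.50 and -0.64 under pAPOBEC3F, and TRE5GCCC0010.fwd 0.57 and 0.44 against 0.12 and 0.05. Their differences were -0.64 ± 0.02 and -0.52 ± 0.04 (SD, n = 2; adjusted limma p 0.00041 and 0.0017), again without overlap of the replicates.

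The promoter and enhancer read-outs of the elements went together. Pearson's r between them was 0.791 under pMYC, 0.652 under pGAPDH and 0.798 under pAPOBEC3F, over 223, 254 and 235 elements. Elements called higher as enhancers were mostly also called higher as promoters: 90 elements under pMYC, which are 90.9% of the enhancer and 67.2% of the promoter calls. Under pAPOBEC3F the 81 shared elements were 97.6% and 55.5% of the calls, and under pGAPDH the 53 shared elements were 75.7% and 51.5%. The shares over all elements were 93.1% and 71.4% under pMYC, 95.4% and 54.8% under pAPOBEC3F and 82.4% and 53.0% under pGAPDH, so TRE5GCCC elements stood near the pool.

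Opposite calls were found mainly under pGAPDH, as they were over all elements. The pGAPDH libraries also had the most reads, and how far depth set these calls was not tested. There 9 elements were called lower as promoters and higher as enhancers and 1 the other way, of 254 elements, against 2.04% and 1.18% of all elements. Under pMYC 4 were lower as promoters and higher as enhancers and 0 the other way (0.548% and 0.196% of all), and under pAPOBEC3F 0 and 1 (0.334% and 0.372%). All 4 under pMYC, and TRE5GCCC0013.fwd, TRE5GCCC0110.fwd and TRE5GCCC0134.fwd under pGAPDH, lost a call in at least 1 fit without 1 library. So did TRE5GCCC0017.rev under pAPOBEC3F. The opposite call with the largest difference was that of TRE5GCCC0179.rev under pGAPDH, as given above. TRE5GCCC0011.rev had -0.45 ± 0.01 as a promoter and 0.92 ± 0.15 as an enhancer under pGAPDH (SD, n = 2 each), TRE5GCCC0080.rev -0.19 ± 0.00 and 0.69 ± 0.04, and TRE5GCCC0147.rev -0.38 ± 0.05 and 0.58 ± 0.15. These 3 were chosen after their values were seen. Under pMYC all 3 were called higher in both read-outs, at 1.27, 1.03 and 0.75 as promoters. The element with the opposite pattern under pGAPDH was TRE5GCCC0134.fwd, with 0.14 and 0.11 as a promoter and -0.47 and -0.42 as an enhancer. Its promoter call was lost without DNA replicate 1 or RNA replicate 2 (adjusted limma p 0.320 and 0.122).

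Orientation differences were called more often in the promoter than in the enhancer read-out, in TRE5GCCC loci as over all loci. For each locus with both orientations, the forward minus the reverse log2 ratio was tested, which does not depend on the zero point of the table. As promoters, 67 of 100 loci under pMYC, 95 of 123 under pGAPDH and 66 of 109 under pAPOBEC3F were called, against 63.0%, 72.1% and 57.3% of all loci. The forward orientation was the higher one in 42, 55 and 39 of these, against 40.3%, 39.7% and 35.7% of all loci, and the reverse in 25, 40 and 27, against 22.7%, 32.5% and 21.6%. As enhancers, 11 of 100 and 16 of 123 loci were called under pMYC and pGAPDH, against 12.5% and 16.9%. Of these, 4 and 5 were higher in forward orientation (4.51% and 3.64% of all loci) and 7 and 11 in reverse (8.01% and 13.2%). Under pAPOBEC3F none of 108 was called by limma, against 5.22% of all loci (2.19% forward and 3.03% reverse). At an unadjusted limma p under 0.05 there were 18 of the 108, against 21.9% of all loci. Standard errors were larger in the enhancer read-out, with medians of 0.21, 0.10 and 0.21 under pMYC, pGAPDH and pAPOBEC3F beside 0.10, 0.06 and 0.12 in the promoter read-out. How far they set the counts was not tested. The median absolute differences under pMYC, pGAPDH and pAPOBEC3F were 0.32, 0.33 and 0.45 as promoters and 0.26, 0.13 and 0.25 as enhancers. Over all loci they were 0.39, 0.32 and 0.41, and 0.24, 0.15 and 0.26.

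These counts moved with single libraries as well. The promoter count was 33 and 35 under pMYC without DNA replicates 1 and 2 and 42 under pAPOBEC3F without DNA replicate 2. The enhancer count under pMYC was 4, 6, 26 and 34 without DNA replicate 1, DNA replicate 2, RNA replicate 1 and RNA replicate 2. Under pGAPDH it was 28 without DNA replicate 2 and 0 without either RNA replicate, and under pAPOBEC3F 30 and 32 without RNA replicates 1 and 2.

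Orientation preferences as promoters were partly shared between minimal promoters. Of 87 loci measured in both orientations under all 3, 20 were higher in forward and 11 in reverse orientation under all 3, against 21.2% and 10.9% of all loci so measured. Another 14 were called in opposite directions under different minimal promoters, against 9.55%. TRE5GCCC0122 and TRE5GCCC0063 were higher in forward orientation under all 3. TRE5GCCC0122.fwd gave 0.14 and 0.18 under pGAPDH and TRE5GCCC0122.rev -1.05 and -1.25, and the forward minus reverse difference was 1.31 ± 0.16 with pGAPDH, 1.05 ± 0.06 with pMYC and 0.87 ± 0.23 with pAPOBEC3F (SD, n = 2; adjusted limma p 3.2e-07, 1.6e-05 and 0.00019). The replicates of the orientations did not overlap in any of these. TRE5GCCC0062 went the other way, with differences of -0.53 ± 0.02, -1.14 ± 0.01 and -0.62 ± 0.04 under pMYC, pGAPDH and pAPOBEC3F, and was called in the same direction as an enhancer under pMYC and pGAPDH, at -0.82 ± 0.13 and -0.43 ± 0.02. The pGAPDH enhancer call was lost without RNA replicate 1 or 2 (adjusted limma p 0.0630 and 0.0515). As an enhancer under pAPOBEC3F its difference was -0.72 ± 0.77 and was not called (adjusted limma p 0.25).

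Other loci had an orientation preference under some minimal promoters and not others. TRE5GCCC0081.fwd stood at 0.15 and -0.00 as a promoter under pMYC, next to 2.51 and 2.82 for TRE5GCCC0081.rev. Forward minus reverse was -2.59 ± 0.33 (SD, n = 2, adjusted limma p 3.1e-06), the largest difference of a TRE5GCCC locus as promoters under pMYC, and under pGAPDH it was -0.11 ± 0.35 (adjusted limma p 0.56). TRE5GCCC0132.rev gave 1.38 and 1.37 under pMYC and 1.87 and 1.80 under pAPOBEC3F, while TRE5GCCC0132.fwd gave -0.44 and -0.14, and -0.43 and -0.05. Under pGAPDH TRE5GCCC0132.rev and TRE5GCCC0132.fwd were both below 0, at -0.50 ± 0.17 and -0.55 ± 0.06, and their difference of -0.06 ± 0.23 was not called. TRE5GCCC0087 was called higher in forward orientation under pMYC (0.28 ± 0.12) and pAPOBEC3F (0.83 ± 0.35) and in reverse under pGAPDH (-0.40 ± 0.03). The first call was lost without DNA replicate 1 (adjusted limma p 0.0851) and the second without DNA replicate 2 (0.115).

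The largest forward minus reverse differences under pGAPDH belonged to TRE5GCCC0122, TRE5GCCC0181 and TRE5GCCC0024. TRE5GCCC0181.fwd gave 0.16 and 0.16 as a promoter and TRE5GCCC0181.rev -1.12 and -1.14. TRE5GCCC0024.fwd gave -0.89 and -1.08 and TRE5GCCC0024.rev 0.28 and 0.30. As enhancers under pGAPDH, TRE5GCCC0024 differed by 0.01 ± 0.06 between its orientations and TRE5GCCC0181 by 0.22 ± 0.15 (SD, n = 2 each; adjusted limma p 0.95 and 0.35). As promoters under pAPOBEC3F the largest were TRE5GCCC0132, TRE5GCCC0038 at 1.94 ± 0.27 and TRE5GCCC0134 at 1.44 ± 0.07. The TRE5GCCC0038 value rests on 43 RNA reads in forward and 18 in reverse orientation. TRE5GCCC0038.fwd itself, at 0.72 and -0.25, was not called (adjusted limma p 0.52).

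Whether the orientation preference of a locus differed between the promoter and the enhancer read-out was tested as the difference of these differences. It was called for 21 of 100 loci under pMYC, 66 of 123 under pGAPDH and 23 of 108 under pAPOBEC3F, against 24.4%, 46.7% and 25.3% of all loci. The count under pMYC was 13 and 11 without DNA replicates 1 and 2 of the promoter read-out and 37 without RNA replicate 2 of the enhancer read-out. Under pAPOBEC3F it was 14 without either DNA replicate and 15 without RNA replicate 2 of the promoter read-out, and 51 and 39 without RNA replicates 1 and 2 of the enhancer read-out.

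TRE5GCCC0079, TRE5GCCC0179 and, under pMYC, TRE5GCCC0087 reversed their preference between the read-outs. For TRE5GCCC0079, forward minus reverse was -0.75 and -0.93 in the promoter replicates and 0.53 and 0.64 in the enhancer replicates under pMYC, and -0.51 and -0.57 against 0.25 and 0.72 under pGAPDH. The difference between read-outs was -1.42 ± 0.21 with pMYC, -1.03 ± 0.37 with pGAPDH and -2.26 ± 0.87 with pAPOBEC3F (SD, n = 2, adjusted limma p 3.5e-05, 0.0002 and 0.0048). The pAPOBEC3F enhancer values of TRE5GCCC0079.fwd came from 8 and 9 DNA reads in replicates 1 and 2. The enhancer preference of TRE5GCCC0079 alone was called under pMYC and pGAPDH, and not under pAPOBEC3F (adjusted limma p 0.18). Under pMYC that call was lost without DNA replicate 1 or 2 (adjusted limma p 0.147 and 0.320). Under pGAPDH it was lost without DNA replicate 2, RNA replicate 1 or RNA replicate 2, at adjusted limma p 0.0765, 0.249 and 0.190. For TRE5GCCC0179 under pGAPDH, the forward orientation was higher as a promoter, with a difference of 0.77 ± 0.02, and the reverse as an enhancer, at -0.91 ± 0.17, a call lost without RNA replicate 1 or 2 (adjusted limma p 0.0718 and 0.0854). The 2 read-outs differed by 1.68 ± 0.19 (SD, n = 2, adjusted limma p 2.7e-06). TRE5GCCC0087 under pMYC was higher in forward orientation as a promoter, as given above, and in reverse as an enhancer, at -0.79 ± 0.38 (adjusted limma p 0.00027). Its read-outs differed by 1.07 ± 0.26 (SD, n = 2, adjusted limma p 0.00066), and its promoter call was lost without DNA replicate 1. Under pGAPDH and pAPOBEC3F the difference between its read-outs was not called (adjusted limma p 0.28 and 0.25).

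In 3 of the other loci named for this comparison the promoter preference was the larger one. TRE5GCCC0134 under pGAPDH had a forward minus reverse difference of 1.37 and 1.08 as promoters and -0.52 and -0.23 as enhancers, and the read-outs differed by 1.60 ± 0.41 (adjusted limma p 1.6e-06). Its enhancer difference alone was not called (adjusted limma p 0.061). TRE5GCCC0081 under pMYC favoured the reverse orientation in both read-outs, by -2.36 and -2.83 as promoters and by -0.91 and -0.74 as enhancers (difference -1.77 ± 0.45, adjusted limma p 0.00067). Its enhancer call, at an adjusted limma p of 0.027, was lost without DNA replicate 1 or 2 (0.450 and 0.417). TRE5GCCC0076 under pAPOBEC3F had 1.13 and 1.22 as promoters and -0.99 and -0.21 as enhancers (difference 1.77 ± 0.49, adjusted limma p 0.0013). Its enhancer difference alone was not called either (adjusted limma p 0.2). TRE5GCCC0063 under pAPOBEC3F had forward minus reverse differences of 0.79 ± 0.14 as promoters and -0.99 ± 1.08 as enhancers, the latter not called (adjusted limma p 0.24). The read-outs differed by 2.64 in replicate 1 and 0.91 in replicate 2 (adjusted limma p 0.029), and the call was lost in 6 of the fits without 1 library, at adjusted limma p from 0.0726 to 0.103. Under pMYC and pGAPDH the same difference was 1.13 ± 0.17 and 0.89 ± 0.01 (SD, n = 2 each; adjusted limma p 3.5e-05 and 3.7e-06).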

How the data were processed

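Per the labels, RNA and DNA libraries of the paBC and eaBC barcodes were sequenced with 150 bp reads, and RNA and DNA libraries of a technical replicate came from the same harvested cells. The tools fastp, edgeR and limma and the build hg38 are named in the submitters' processing notes, and their versions, roles and order are not given in the sources used here. The authors deposited signal values per element and library, log2 fold changes and adjusted p-values. All deposited signal values were whole multiples of 1 step per column (tolerance 0.02), and the step was taken as 1 read. Steps differed between tables of the same library, so each table was normalized separately.

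Log2 RNA/DNA ratios were computed from the signal with 0.5 reads added, per replicate. Fits used R 4.3.3 with limma 3.58.1 (lmFit, eBayes with a trend) over the whole table, with Benjamini-Hochberg adjustment, and were tested on simulated data. Counting and averaging used Python 3.11.15. The ratios differed from the log2 fold changes in the authors' deposited tables by at most 0.0535. The libraries held 200722 to 10167588 reads per table, and alternatives covered the reads added, a minimum of 10 DNA reads, the centring, a replicate block and each library left out. The labels name no molecular identifiers, so reads were not taken as independent molecules. The edgeR fit planned on these inferred reads was not run, since they were not accepted as recovered counts for a count model.

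Elements were named only from tables where they had at least 10 reads in both DNA libraries, and their values elsewhere can rest on fewer. Per table they were the 5 highest and 3 lowest called elements and the 3 called loci with the largest orientation difference, per pair of minimal promoters the 3 called elements differing most either way, and per minimal promoter the 2 called loci differing most between read-outs. The members, lists and rules were chosen with earlier results of these data known. As a check of pairing, the deviations of same-numbered RNA and DNA libraries correlated by -0.0743 to 0.0280 over all elements of a table.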

Additional observations from a re-analysis of the deposited data

Results flagged for a closer look

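For a number of elements and loci, the difference between conditions itself passed the limma test, and the counts that follow tally them. Between pGAPDH and pMYC, TRE5GCCC elements differed in 44 higher and 102 lower promoter values and in 9 higher and 44 lower enhancer values. Between pAPOBEC3F and pMYC, 63 promoter values were higher and 22 lower. The orientation difference of a locus differed between the promoter and enhancer read-outs for 21 loci under pMYC, 66 under pGAPDH and 23 under pAPOBEC3F. Shares over all elements are given with the results, and the cause of these differences was not tested.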

How the results depend on the processing

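The lowest median RNA reads per TRE5GCCC element were those of the pAPOBEC3F and pMYC enhancer read-outs, and how far depth set the counts of calls was not tested. Requiring an absolute log2 ratio of at least 1 left 64, 15 and 90 higher and 4, 9 and 3 lower promoter calls under pMYC, pGAPDH and pAPOBEC3F, and 34, 16 and 43 higher and 0 lower enhancer calls. Centring each table on its median gave 69 and 71 lower promoter calls under pMYC and pAPOBEC3F and 27 lower enhancer calls under pMYC. Applied to patterns, which was added with the values known, it gave 15 elements higher under pMYC and pAPOBEC3F and lower under pGAPDH, and 2 opposite calls between read-outs under pMYC. For the centred counts no shares over all elements are given. At the authors' zero points, not centred, 4 elements were higher and 155 lower under pGAPDH than pMYC as promoters, 0 and 79 as enhancers, and 11 lower under pAPOBEC3F as promoters. On reads over library totals, 219 were higher and 0 lower under pGAPDH in either read-out, and under pAPOBEC3F 10 were higher and 128 lower as promoters and 167 lower as enhancers. The medians of all shared elements on both scales are given with the results. Adding 2 reads called 1 locus between orientations for pAPOBEC3F enhancers. The other 118 of 148 counts stayed within 1.5 times.

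With 1 library left out, a fit takes its spread from the arm that keeps both libraries, and the lone library is assumed to vary like those. Higher promoter calls ranged from 120 to 153, 96 to 103 and 134 to 158 under pMYC, pGAPDH and pAPOBEC3F, and lower ones from 25 to 47, 105 to 114 and 30 to 51. Higher enhancer calls ranged from 77 to 117, 50 to 68 and 59 to 102, and lower ones from 1 to 14, 10 to 32 and 2 to 30. Against pMYC, pGAPDH promoters ranged from 33 to 55 higher and 87 to 108 lower, pGAPDH enhancers from 0 to 19 and 24 to 52, pAPOBEC3F promoters from 32 to 83 and 8 to 60, and pAPOBEC3F enhancers from 0 to 7 and 0 to 11. Orientation calls ranged from 33 to 72, 81 to 88 and 42 to 82 as promoters, from 4 to 34, 0 to 28 and 0 to 32 as enhancers, and from 11 to 37, 50 to 70 and 14 to 51 between read-outs.

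With the replicate number as a block, no count of calls moved by over 1.5 times and no named difference lost its call. Promoter calls under pMYC were 136 higher and 39 lower with the block, and 46 elements were higher and 106 lower under pGAPDH than pMYC as promoters. Of the 39 differences that the naming rule chose, 31 kept their call without any 1 library, 8 lost it in at least 1 such fit, and 0 turned direction. The planned edgeR fit was not run.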
